A study of Mus musculus with 13 samples.

Results

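Muc2, Fcgbp, Zg16, Clca3, Agr2, Tff3, Spink4, Klk1, Ccl6 and Ccl9 were followed through the goblet and Paneth cells of the mouse small intestine. They were picked by gene symbol, and all 10 were present among the 16204 genes of the files. The data were single-cell transcript counts from CEL-seq, which reads the 3' end of each transcript and counts molecules by random barcodes, in 13 libraries of 96 barcodes. All mice carried Lgr5-CreERT2, a tamoxifen-inducible Cre driven by the stem cell gene Lgr5, on C57Bl6/J, together with the Rosa26LSL-YFP reporter. Tamoxifen therefore marks Lgr5+ stem cells and their later offspring with YFP, and such cells are called traced. Traced cells were sorted 5 days after tamoxifen with no surface gate (5 libraries), at 3 weeks as CD24+ cells (1), and at 8 weeks as CD24+ cells (3) or ungated (1). CD24+ cells that were not traced, taken at 8 weeks (2), are the control for tracing. CD24 is a surface protein used as a sorting gate. A further library was labelled 3-week non-traced CD24+, but the identical profiles carry a YFP name without CD24 in a combined table, so its values are given under that label and enter no test. The labels give neither the age of the mice nor how many mice a library came from, so the spread between libraries may be in part technical.

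Mucus of the intestine is built on Muc2, a very large glycoprotein that goblet cells fold and link into chains in the endoplasmic reticulum, load with sugars in the Golgi and release from granules. Goblet cells secrete with it the proteins that make up the rest of the gel. Paneth cells sit at the crypt base, release antimicrobial peptides such as the defensins and lysozyme, and arise from the same secretory progenitors as goblet cells. Of the 10 genes, Muc2 is the gel-forming mucin, Fcgbp (IgG Fc binding protein) is a large protein bound to the mucin network, Zg16 is a lectin that binds bacterial cell walls, and Clca3 is a metalloprotease of the mucus, annotated today as Clca1. Agr2 is a protein disulfide isomerase of the endoplasmic reticulum that the mouse needs for intestinal Muc2 production, and Tff3 is a trefoil peptide that aids repair of the epithelium. Spink4 belongs to a family of serine protease inhibitors, Klk1 is tissue kallikrein, a serine protease, and Ccl6 and Ccl9 are chemokines of the mouse.

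The genes lie on 6 chromosomes in GRCm38. On chromosome 7 are Fcgbp (chr7:28071236-28120862, plus strand), Klk1 (chr7:44225360-44229618, plus), Zg16 (chr7:127050156-127087328, minus) and Muc2 (chr7:141690340-141754693, plus). Clca3 is at chr3:145003817-145032776 (minus), Spink4 at chr4:40920052-40931395 (plus), Agr2 at chr12:35992907-36004087 (plus) and Tff3 at chr17:31125306-31129646 (minus). Ccl9 (chr11:83572919-83578636, minus) and Ccl6 (chr11:83587882-83593087, minus) are neighbours on the same strand, which makes them the pair to compare by position. RefSeq promoters (GRCm38.p6) were at hand for 6 of the 10 genes, and 4 are shown because they belong to the mucin with its partner Fcgbp, whose levels in Paneth-like cells lay far apart, and to the neighbouring chemokines, which also differed. Each runs 5' to 3' over the 250 bases before the annotated start, on the strand of the gene, at chr7:141690090-141690339 (Muc2), chr7:28070986-28071235 (Fcgbp), chr11:83578637-83578886 (Ccl9) and chr11:83593088-83593337 (Ccl6). Capitals mark matches to the E-box CAGCTG, the forkhead motif TGTTTAC, the CDX motif TTTATG or TATAAA on either strand.
Muc2: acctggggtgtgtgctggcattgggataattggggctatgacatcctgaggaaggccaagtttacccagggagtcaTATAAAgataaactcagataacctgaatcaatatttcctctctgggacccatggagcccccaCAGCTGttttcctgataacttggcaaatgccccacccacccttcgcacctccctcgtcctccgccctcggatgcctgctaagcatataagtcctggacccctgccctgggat
Fcgbp: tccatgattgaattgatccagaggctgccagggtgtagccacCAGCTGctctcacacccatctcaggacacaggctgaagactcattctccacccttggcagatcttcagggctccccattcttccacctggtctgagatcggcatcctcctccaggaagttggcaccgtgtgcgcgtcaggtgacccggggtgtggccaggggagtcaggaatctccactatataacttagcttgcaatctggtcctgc
Ccl9: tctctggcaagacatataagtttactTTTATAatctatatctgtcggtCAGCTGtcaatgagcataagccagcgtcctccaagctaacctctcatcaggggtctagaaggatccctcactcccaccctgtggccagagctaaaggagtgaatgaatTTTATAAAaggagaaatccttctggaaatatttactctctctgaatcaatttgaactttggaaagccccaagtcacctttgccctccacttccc
Ccl6: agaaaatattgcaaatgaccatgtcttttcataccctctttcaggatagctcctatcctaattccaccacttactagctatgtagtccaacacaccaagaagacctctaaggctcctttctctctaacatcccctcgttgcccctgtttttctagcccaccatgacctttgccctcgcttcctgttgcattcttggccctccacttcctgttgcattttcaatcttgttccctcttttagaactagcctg
The Muc2 window held 1 CAGCTG and 1 TATAAA, and that of Fcgbp held 1 CAGCTG. The Ccl9 window held 1 CAGCTG and 3 matches to TATAAA over both strands, 2 of which overlap, and the Ccl6 window held none of the motifs. Among 32851 RefSeq promoters of this length, 13% held CAGCTG, 12.4% TATAAA, 10.8% TTTATG and 3.17% TGTTTAC, so that such matches are common and describe the letters only.

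The libraries held 421675 to 1385266 transcripts, and 892 barcodes with at least 3000 transcripts each were kept as cells, with library medians of 5412 to 14458. Cell classes came from clusters made without the 10 genes and were named from other markers, so they are called goblet-like and Paneth-like. There were 82 goblet-like cells in 11 libraries and 67 Paneth-like cells in 11. A further 17 cells, all from the 8-week libraries, were named goblet-like in some clustering runs and Paneth-like in others and are kept apart as cells named in both classes. The 24 goblet markers summed to 67.5 to 126.4 per 10000 transcripts in goblet-like cells, against 57.2 to 112 in Paneth-like cells, over the libraries with at least 3 cells of a class. The 20 Paneth markers summed to 5.05 to 342 per 10000 in goblet-like cells, against 3096 to 4471 in Paneth-like cells. The goblet markers therefore overlapped between the classes, whereas the Paneth markers, more than 3000 of every 10000 transcripts in Paneth-like cells, did not. Goblet-like cells numbered 4, 7, 4 and 4 in 5-day replicates 1, 2, 3 and 5, 29 in the 3-week traced library, 5 in the library labelled 3-week non-traced, 7, 2 and 8 in the 8-week traced CD24+ libraries and 10 in the ungated 8-week library. Paneth-like cells numbered 1, 7, 8 and 3 in the same 5-day replicates, 13, 5 and 11 in the 8-week traced CD24+ libraries, 10 and 5 in the non-traced ones, and 0 in both 3-week libraries. 5-day replicate 4 stood apart, with 0 goblet-like cells, 2 Paneth-like cells and 41 cells in a cluster of its own, and is described last. The later libraries held 0.816 to 1.79 Xist transcripts per 10000, against at most 0.0131 at 5 days, and no Ddx3y of the Y chromosome, against 0.217 to 0.408, so the later mice were female and the 5-day mice male. Time, sex and (for CD24+ libraries) the gate cannot be told apart in any comparison of 8 weeks with 5 days.

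Together the 10 genes made up 4.65% to 12.1% of the transcripts of goblet-like cells, against 0.947% to 3.73% in Paneth-like cells and at most 0.116% in stem-like cells. In goblet-like cells the share was 4.88% to 9.15% at 5 days, 12.1% in the 3-week traced library, 4.65% and 6.56% in the 8-week CD24+ libraries and 7.51% in the ungated 8-week library. In Paneth-like cells it was 0.947% to 1.30% at 5 days, 2.32% to 3.55% in the 8-week traced CD24+ libraries and 2.36% and 3.73% in the non-traced ones. The goblet-like and Paneth-like ranges did not overlap, and neither did the 8-week and 5-day Paneth-like ranges. Levels below are transcripts per 10000 of all transcripts in the summed cells of a class in a library, and since each transcript gives 1 tag they need no correction for gene length.

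Among the gel proteins, Muc2 was clearly present in both classes. Fcgbp, Zg16 and Clca3 were close to 0 in Paneth-like cells and higher in the goblet-like sums. Clca3 reached only 0.969 to 24.4 per 10000 in the 5-day goblet-like sums. Muc2 stood at 28.2, 62.3, 74.5 and 29.3 per 10000 in the goblet-like cells of 5-day replicates 1, 2, 3 and 5, against 9.29, 8.15 and 7.55 in the Paneth-like cells of replicates 2, 3 and 5. Its level was 111 per 10000 in the 3-week traced goblet-like cells (exact Poisson interval 107 to 116), and 48.9 and 34.1 in the goblet-like cells of 8-week traced CD24+ replicates 1 and 3, against 16.6, 21.1 and 14.8 in the Paneth-like cells of 8-week replicates 1, 2 and 3. Every one of these goblet-like libraries lay above every one of these Paneth-like libraries. Fcgbp stood at 76.8, 162, 103 and 87.7 per 10000 in 5-day goblet-like cells, against 0.477, 0.822 and 0.578 in 5-day Paneth-like cells. At 8 weeks it was at 75.7 and 40.02 in goblet-like cells of replicates 1 and 3, against 0.110, 2.76 and 1.31 in Paneth-like cells of replicates 1, 2 and 3, where 95.6% of the replicate 2 value came from 1 cell. The Fcgbp levels of the classes stayed far apart at both times.

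Zg16 and Clca3 had the same order of classes but varied more between goblet-like libraries. Zg16 stood at 26.9, 97.6, 73.3 and 35.2 per 10000 in 5-day goblet-like cells, against 0.715, 0.546 and 0.576 in 5-day Paneth-like cells. At 8 weeks it was at 18.6 and 7.57 in the CD24+ goblet-like cells of replicates 1 and 3 and at 109 in the ungated goblet-like cells, against 0, 0.121 and 0 in the CD24+ Paneth-like cells of replicates 1, 2 and 3. Clca3 stood at 0.969, 24.4, 6.71 and 17.7 per 10000 in 5-day goblet-like cells, against 0.238, 0.0909 and 0.384 in 5-day Paneth-like cells. It was at 0 in both non-traced Paneth-like libraries, where 3 transcripts would have given 0.142 and 0.247 per 10000. The lowest 5-day goblet-like value of Clca3 rested on 6 transcripts and came near the Paneth-like values, while those of Zg16 did not.

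Agr2 and Tff3, the folding enzyme and the trefoil peptide, were high in goblet-like cells and low but measurable in Paneth-like cells. Agr2 stood at 45.3, 60.2, 69.2 and 61.3 per 10000 in 5-day goblet-like cells, against 1.52, 2.03 and 2.12 in 5-day Paneth-like cells. At 8 weeks it was at 68.4 and 54.02 in goblet-like cells of replicates 1 and 3, against 4.13, 7.24 and 5.88 in Paneth-like cells of replicates 1, 2 and 3. Agr2 was the steadiest of the gel and folding genes over the 5-day goblet-like libraries, at 59.02 ± 9.98 (SD, n = 4), against 48.6 ± 23.4 for Muc2. Tff3 averaged 183 ± 54.7 per 10000 in 5-day goblet-like cells (SD, n = 4) and 15.3 ± 5.09 in 5-day Paneth-like cells (SD, n = 3). At 8 weeks Tff3 averaged 167 ± 44.6 in CD24+ goblet-like cells (SD, n = 2) and 28.2 ± 4.40 in CD24+ Paneth-like cells (SD, n = 3). Tff3 was also the gene with the highest level in another class, the enteroendocrine-like cells, where its median over 7 libraries was 13.04 per 10000 (5.63 to 28.7), against 1.38 in the stem-like cells of 8 libraries.

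Spink4 and the chemokine Ccl6 were carried at like levels by both classes in part of the groups, whereas Klk1 and the chemokine Ccl9 were higher in goblet-like cells at 5 days. Spink4 stood at 142, 211, 253 and 102 per 10000 in 5-day goblet-like cells, against 49.5, 54.1 and 73.6 in 5-day Paneth-like cells. At 8 weeks it was at 185 and 136 in goblet-like cells of replicates 1 and 3, against 145, 249 and 187 in Paneth-like cells of replicates 1, 2 and 3, so that the classes overlapped there. Ccl6 stood at 18.9, 19.7, 28.9 and 5.77 per 10000 in 5-day goblet-like cells, against 19.3, 20.7 and 21.6 in 5-day Paneth-like cells, and again the classes overlapped. At 8 weeks Ccl6 averaged 24.3 ± 10.7 in CD24+ goblet-like cells (SD, n = 2) and 33.9 ± 5.67 in CD24+ Paneth-like cells (SD, n = 3). Its neighbour Ccl9 stood at 13.6, 8.70, 6.18 and 3.82 per 10000 in 5-day goblet-like cells, against 0.796, 0.639 and 1.75 in 5-day Paneth-like cells, with no overlap. Klk1 stood at 6.63, 17.5, 20.7 and 5.88 per 10000 in 5-day goblet-like cells, against 1.76, 0.455 and 0.769 in 5-day Paneth-like cells. At 8 weeks the Klk1 levels of the classes overlapped, with 9.23 and 5.90 in goblet-like cells of replicates 1 and 3 and 1.61, 8.97 and 8.63 in Paneth-like cells of replicates 1, 2 and 3.

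At 3 weeks no Paneth-like cells were found, and the goblet-like cells came from single libraries with no test. In the 29 goblet-like cells of the 3-week traced library Tff3 stood at 315 per 10000, Spink4 at 293, Fcgbp at 212, Zg16 at 96.5, Agr2 at 94.03, Clca3 at 32.2, Ccl6 at 20.5, Klk1 at 15.97 and Ccl9 at 15.4. The library labelled 3-week non-traced had 5 goblet-like cells, in which Zg16 was at 211, Agr2 at 146 and Clca3 at 50.1, but Spink4 at 108 and Ccl6 at 6.19. Fcgbp, Tff3, Spink4, Agr2, Muc2 and Clca3 were thus higher in the 3-week traced cells than in any 5-day or 8-week goblet-like library of at least 3 cells except, for Clca3, the ungated 8-week library at 36.9. The ungated 8-week goblet-like cells had 226 per 10000 of Tff3, 120 of Spink4, 87.1 of Fcgbp, 80.2 of Agr2, 59.7 of Muc2, 17.5 of Ccl6, 10.8 of Klk1 and 4.26 of Ccl9. At 8 weeks Ccl9 stood at 11.1 and 27.3 in the CD24+ goblet-like cells of replicates 1 and 3, against 2.86, 5.14 and 6.18 in the CD24+ Paneth-like cells of replicates 1, 2 and 3, with no overlap.

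**Figure D1:**
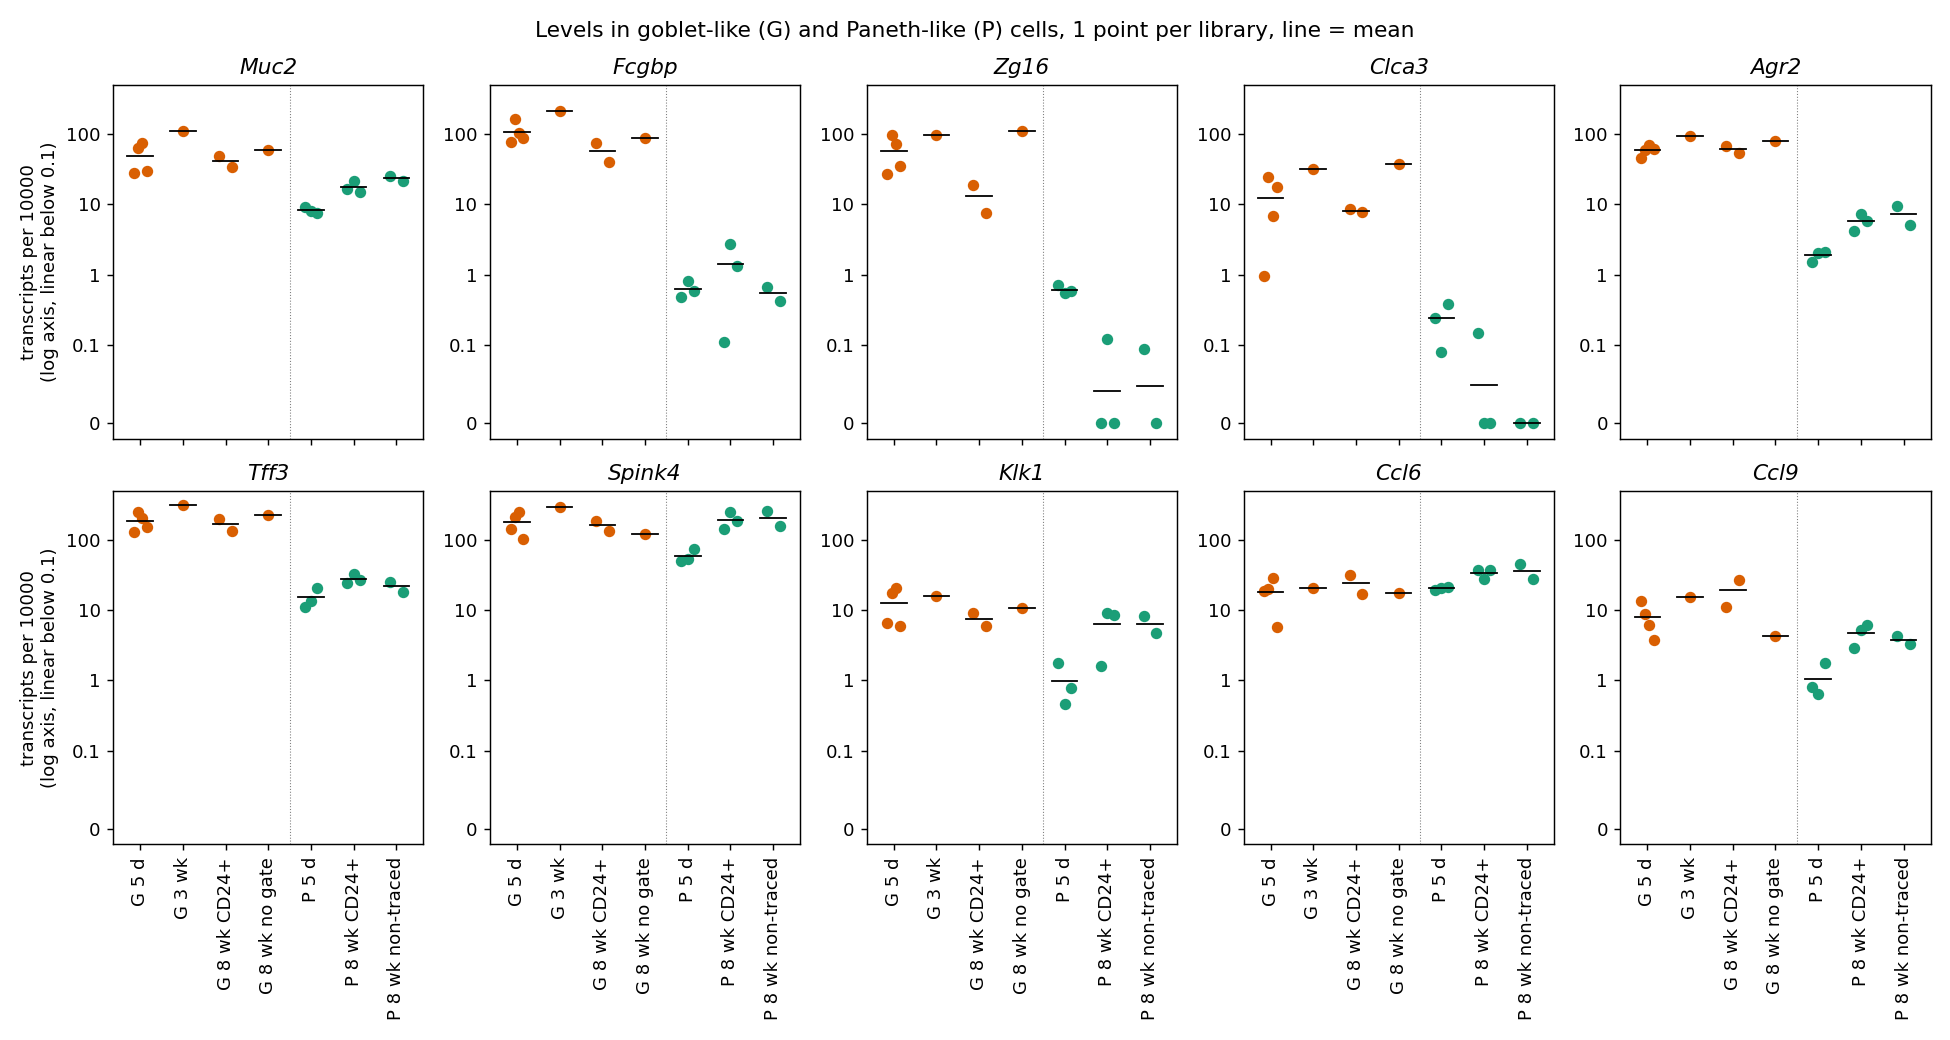
Transcripts per 10000 of each gene (log axis, linear below 0.1) in goblet-like (G, orange) and Paneth-like (P, green) cells by group, with 1 point per library of at least 3 cells of the class and a line at the mean. Fcgbp, Zg16 and Clca3 lie near the bottom in every Paneth-like group. The points of Spink4 and Ccl6 overlap between the classes at 8 weeks, where the Ccl6 mean was 24.3 in CD24+ goblet-like cells, against 33.9 in traced CD24+ Paneth-like cells.

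The classes were compared within libraries by edgeR's quasi-likelihood test with Benjamini-Hochberg adjustment, with the library as a block. At 5 days (replicates 2, 3 and 5), 7 of the 9 genes that could be tested were higher in goblet-like than in Paneth-like cells and 1 was lower, against 28.8% of all 326 genes tested that changed in either direction and 15% that were higher. Genes near 0 in Paneth-like cells, such as Fcgbp, Zg16 and Clca3, passed the filter on low counts only through the goblet-like sums, which fixes their direction, so nothing is read from this count against the share of all genes. Fcgbp was higher by 7.27 ± 0.397 on the log2 scale (SE, adjusted p = 7.13e-59) and Zg16 by 6.92 ± 0.326 (adjusted p = 7.26e-74). Clca3 was higher by 5.23, Agr2 by 4.24, Tff3 by 3.19, Klk1 by 3.08 and Muc2 by 2.05, all called in each of 16 alternative settings. Spink4 was higher by 1.10 ± 0.498 (SE), which missed the threshold (adjusted p = 0.0886) and passed it in 5 of 16 alternatives. Ccl6 fell by 0.63 ± 0.199 (SE, adjusted p = 0.00810), a call kept in 7 of 16 alternatives. Ccl9 had too few counts to be tested.

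At 8 weeks (traced CD24+ replicates 1 and 3), 5 of the 10 genes were higher in goblet-like than in Paneth-like cells and 2 were lower, against 20.3% of all 1210 genes tested that changed in either direction, 6.03% that were higher and 14.3% that were lower. Zg16 and Clca3, with 0 to 4 transcripts in the Paneth-like sums of the libraries tested, entered only through the goblet-like ones, so nothing is read from this count either. Fcgbp was higher by 5.18 ± 0.331 on the log2 scale (SE), Clca3 by 4.99 ± 0.569, Agr2 by 2.36 ± 0.2503 and Tff3 by 1.27 ± 0.271 (adjusted p = 4.66e-05 for Tff3 and smaller for the others). Fcgbp and Agr2 were called in each of 12 alternatives and Clca3 in each of the 8 that tested it, whereas DESeq2 called 4 of the 10 genes in all and neither Tff3 (adjusted p = 0.0970, called in the other 11) nor Zg16 (adjusted p = 0.353, called in the other 7). Zg16 was at 0 in both Paneth-like sums of this fit, so its fitted change depends on the prior count. Set against 3 transcripts over the group, its level in goblet-like cells was at least 216-fold higher. This bound is taken per 10000 of all transcripts, a scale other than that of the fit. In replicates 1 and 3, 1 cell held 80.3% and 84.4% of the goblet-like Zg16 transcripts. Ccl6 fell by 2.07 ± 0.252 on the log2 scale (SE, adjusted p = 1.30e-14) and Spink4 fell by 1.42 ± 0.333 (SE, adjusted p = 0.000261). Ccl6 was called in each of 12 alternatives and Spink4 in 9 of 12. Muc2 differed by 0.02 ± 0.231 on the log2 scale (SE, adjusted p = 0.961), Klk1 by -0.49 ± 0.296 (adjusted p = 0.247) and Ccl9 by 0.64 ± 0.255 (adjusted p = 0.0553), none of them called.

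These fold changes depend on the scaling. The Paneth markers made up 3096 to 3498 of 10000 Paneth-like transcripts at 5 days and 3844 to 4471 in the 8-week traced CD24+ libraries, and their part in this was not tested. The TMM factors of the test set most genes equal between the classes, whereas scaling by total transcripts shifts the median of all genes by 0.57 at 5 days and by 1.35 at 8 weeks on the log2 scale, toward goblet-like cells. Under totals, 138 genes were higher and 27 lower at 5 days, against 49 and 45 with TMM. At 8 weeks 865 were higher and 54 lower under totals, against 73 and 173 with TMM. Under totals Muc2 was higher in 8-week goblet-like cells by 1.39 on the log2 scale (adjusted p = 1.51e-06), Klk1 by 0.86 (adjusted p = 0.0307) and Ccl9 by 1.99 (adjusted p = 2.31e-09), and Spink4 differed by -0.06 (adjusted p = 0.881). Ccl6 fell by 0.71 at 8 weeks (adjusted p = 0.00936) and differed by -0.07 at 5 days (adjusted p = 0.844). The calls of Fcgbp, Zg16, Clca3, Agr2 and Tff3 had the same direction under both scalings at both times. The smallest p-values rest on edgeR's estimate that all genes share nearly the same spread, with 2 residual degrees of freedom at 5 days and 1 at 8 weeks.

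**Figure D2:**
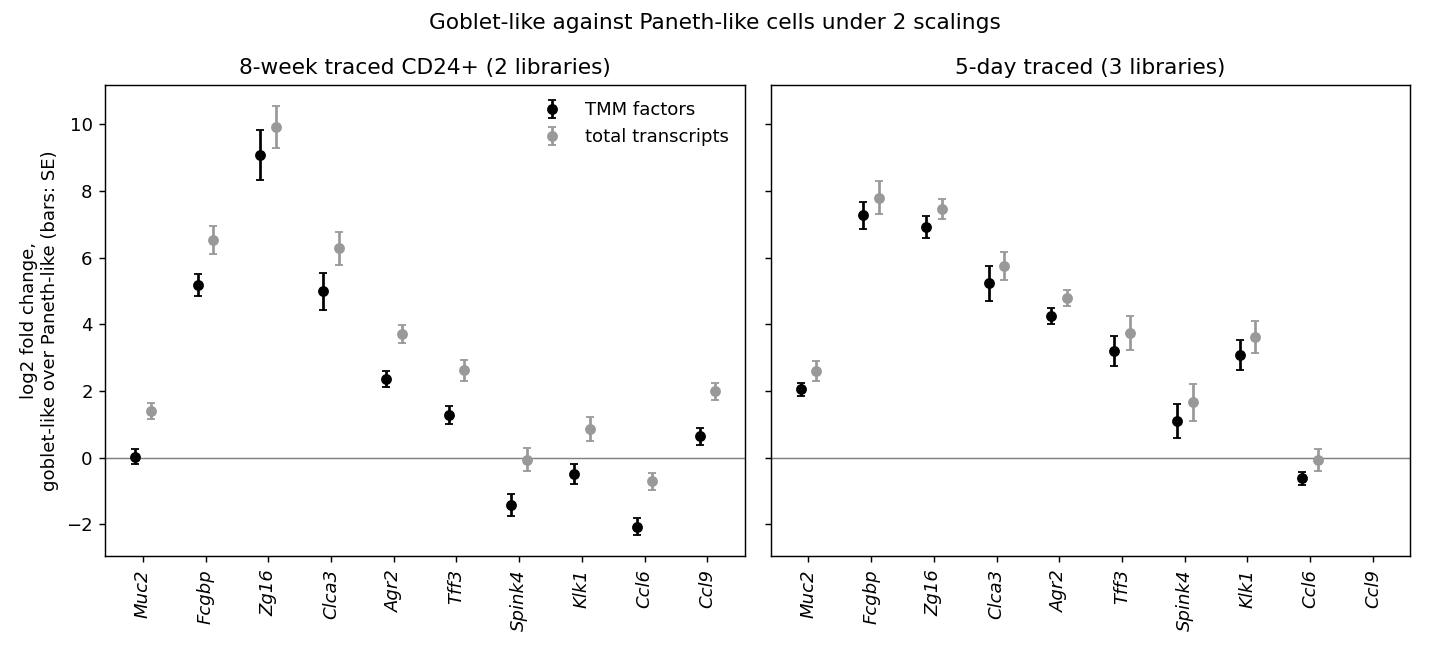
Log2 fold change of each gene in goblet-like over Paneth-like cells, with SE bars, in the 8-week traced CD24+ libraries (left) and the 5-day libraries (right), scaled by TMM factors (black) or by total transcripts (grey). Ccl9 was not tested at 5 days, and at 8 weeks Muc2 lies at 0.02, Klk1 at -0.49 and Spink4 at -1.42 with TMM factors, against 1.39, 0.86 and -0.06 with totals.

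The difference between the classes itself was compared between 8 weeks and 5 days in a model with the interaction of class and time. In 4 of the 10 genes the goblet-like advantage was smaller at 8 weeks than at 5 days, against 2.04% of all 1127 genes tested that changed in either direction, 1.86% in this direction and 0.177% in the other. Ccl9 had, over all counts, 10, 7 and 9 transcripts in the Paneth-like sums of 5-day replicates 2, 3 and 5. It could be tested here only with the 8-week libraries added. Klk1 also rested on few 5-day Paneth-like transcripts, so nothing is read from this count against the share of all genes. Klk1 fell by 3.42 ± 0.780 on the log2 scale (SE), Muc2 fell by 1.82 ± 0.406 and Agr2 fell by 1.71 ± 0.401, each with an adjusted p of 0.0350, and Ccl9 fell by 1.76 ± 0.462 (adjusted p = 0.0490). Spink4 differed by -2.34 ± 0.666 (SE, adjusted p = 0.0625) and Tff3 by -1.75 ± 0.520 (SE, adjusted p = 0.0686), and Ccl6 by -1.22 (adjusted p = 0.141). Fcgbp differed by -1.97 ± 1.00 (SE, adjusted p = 0.284), Zg16 and Clca3 having too few Paneth-like transcripts for a useful estimate. The median was -1.76 over the 10 genes and -0.16 over all genes. These calls were fragile: 0 remained with DESeq2 or without 8-week replicate 3, 2 without 5-day replicate 2 and 7 without 5-day replicate 5, and under totals 1 remained (Klk1, adjusted p = 0.0161). Over all genes 2 were higher and 21 lower with TMM, and 123 higher and 10 lower under totals, where the median of all genes was 0.44.

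Within Paneth-like cells all 7 genes with enough counts were higher in the 8-week traced CD24+ libraries (3) than in the 5-day libraries (3), against 46.5% of all 1098 genes tested that changed in either direction, 25.8% that were higher and 20.8% that were lower. Ccl9, with 7 to 10 transcripts in the 5-day sums, and Klk1, with 4 to 22, had enough counts mainly through the 8-week libraries, so nothing is read from the count, and Fcgbp, Zg16 and Clca3 are not part of it. Klk1 rose by 2.86 ± 0.592 on the log2 scale (SE, adjusted p = 0.00193) and Ccl9 rose by 2.65 ± 0.384 (adjusted p = 0.000275). Spink4 rose by 2.03 ± 0.254 (SE, adjusted p = 0.000104), Agr2 by 1.94 ± 0.272 (adjusted p = 0.000212) and Muc2 by 1.41 ± 0.208 (adjusted p = 0.000296). Tff3 rose by 1.23 ± 0.258 (SE, adjusted p = 0.00207) and Ccl6 by 1.08 ± 0.228 (adjusted p = 0.00221). All 7 were called in each of 18 alternatives, and under totals the changes were 0.73 (Ccl6) to 2.53 (Klk1). Levels of 8-week traced CD24+ and 5-day Paneth-like libraries did not overlap for 6 of the 7. The lowest 8-week traced value of Klk1, 1.61 per 10000 in replicate 1, lay under the highest 5-day value, 1.76 in replicate 2. In the 8-week non-traced libraries, outside this test, the lowest Tff3 value, 17.99, also lay under the highest 5-day one, 20.96. Over all genes 283 were higher and 228 lower with TMM, and 169 higher and 337 lower under totals.

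The 8-week and 5-day Paneth-like cells came mostly from different clusters. Of the 46 8-week Paneth-like cells of all groups, 38 lay in the cluster that was mainly of 8 weeks, with a median Spink4 level of 149 per 10000, a median Muc2 of 20.6 and a median Agr2 of 4.78. The other 8 lay in the cluster that held most 5-day Paneth-like cells, with medians of 73.6 for Spink4, 8.18 for Muc2 and 1.55 for Agr2. The 19 Paneth-like cells of 5-day replicates 1, 2, 3 and 5 had medians of 48.4 for Spink4, 7.74 for Muc2 and 1.45 for Agr2. The 8-week cells of the second cluster were thus nearer to the 5-day cells than to the other 8-week cells in these 3 genes. The same held for Tff3 (16.4, against 12.5 at 5 days and 26.2), Klk1 and Ccl9. Ccl6 stood midway, at 29.2, against 19.2 at 5 days and 37.2. These cells share a cluster with the 5-day cells through other genes, so likeness is in part built in. The comparison rests on 8 cells and was not tested. The summed goblet markers stood at 84.7 to 93.2 per 10000 in 8-week traced CD24+ Paneth-like cells, against 57.2 to 68.7 in 5-day ones, with all Paneth markers raised in both clusters, and their part in the result was not tested.

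Of 34 other listed genes of mucin glycosylation, secretion and folding, 32 were in the files and 8 had enough counts, and 7 of these 8 were higher at 8 weeks than at 5 days, where 25.8% of all genes tested were higher; the same filter applies to this count. Galnt4 rose by 2.38 ± 0.461 on the log2 scale (SE, adjusted p = 0.00132) and Galnt7 rose by 1.73 ± 0.270 (adjusted p = 0.000360), both of them transferases that start the O-linked sugar chains. Gcnt3, which branches these chains, rose by 1.51 (adjusted p = 0.00435), and C1galt1c1, the chaperone of the core 1 synthase, rose by 0.97 (adjusted p = 0.0227). Hspa5, the main chaperone of the endoplasmic reticulum, rose by 1.94 ± 0.247 (SE, adjusted p = 0.000117), Xbp1, a transcription factor of the unfolded protein response, by 0.80 (adjusted p = 0.0142), and the membrane mucin Muc13 by 0.71 (adjusted p = 0.0308). Vamp8, of the secretory granule, was the member that did not pass (0.09, adjusted p = 0.848).

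Within goblet-like cells none of the 10 genes was called between the 8-week traced CD24+ libraries (2) and the 5-day libraries (4), against 1.93% of all 1243 genes tested (0.483% higher and 1.45% lower). At an unadjusted p under 0.05 there were 3 of the 10 genes and 195 genes in all, and DESeq2 called 1 of the 10, Zg16. Zg16 differed by -2.20 ± 0.533 on the log2 scale (SE, adjusted p = 0.0556), with 18.6 and 7.57 per 10000 in the 8-week libraries, against 26.9 to 97.6 in the 5-day ones. It passed the threshold in 7 of 18 alternatives, totals among them (-2.14, adjusted p = 0.0436). The groups did not overlap for Zg16, but the ungated 8-week goblet-like cells, which enter no test, stood at 109 per 10000. Each sum tested rested mostly on 1 cell, which held 61.6% to 97.9% of the Zg16 transcripts in the 5-day libraries and 80.3% and 84.4% in the 8-week ones. Fcgbp differed by -0.94 ± 0.328 on the log2 scale (SE, adjusted p = 0.182) and Ccl9 by 1.18 ± 0.434 (SE, adjusted p = 0.205). Agr2 differed by 0.01 ± 0.219 (SE, adjusted p = 0.978), and Muc2, Clca3, Tff3, Spink4, Klk1 and Ccl6 by -0.81 to 0.35 (adjusted p from 0.452 to 0.819). Of the other mucin genes 1 of 9 tested was higher, Galnt7, by 1.43 ± 0.259 on the log2 scale (SE, adjusted p = 0.0159). Over all genes 6 were higher and 18 lower with TMM, and 12 higher and 22 lower under totals.

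**Figure D3:**
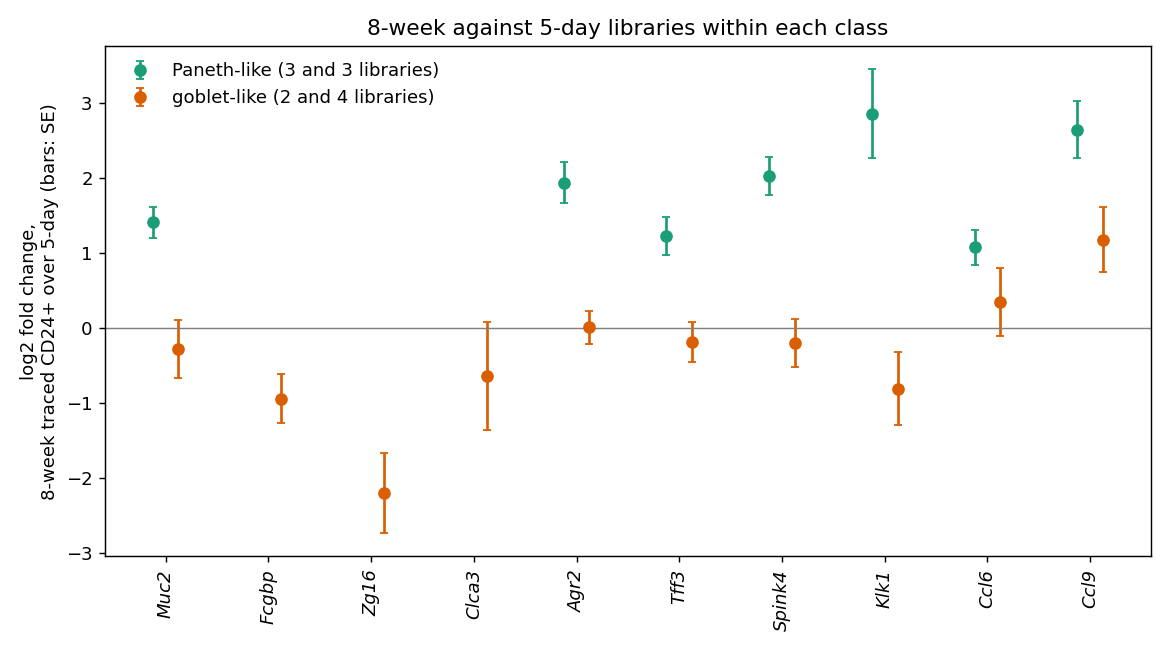
Log2 fold change of each gene, 8-week traced CD24+ over 5-day libraries, with SE bars, within Paneth-like cells (green, 3 and 3 libraries) and within goblet-like cells (orange, 2 and 4 libraries). All 7 genes tested in Paneth-like cells lie above 0 (1.08 to 2.86), whereas those of goblet-like cells lie on either side of it, from -2.20 for Zg16 to 1.18 for Ccl9.

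Traced and non-traced CD24+ Paneth-like cells at 8 weeks (3 and 2 libraries) were compared to see whether cells that arose from Lgr5+ cells after labelling carry other levels. None of the 8 genes with enough counts was called, against 0.494% of all 2226 genes tested (0.0898% higher and 0.404% lower). None of the 8 reached an unadjusted p under 0.05, 152 genes did in all, and DESeq2 called none of the 8. Muc2 stood at 16.6, 21.1 and 14.8 per 10000 in traced cells, against 25.4 and 21.6 in non-traced cells, a log2 difference of -0.50 ± 0.277 (SE, adjusted p = 0.763). These groups did not overlap for Muc2, but the highest traced value, 21.1, and the lowest non-traced value, 21.6, nearly met. Spink4 stood at 145, 249 and 187 in traced cells, against 254 and 156 in non-traced cells, and Agr2 at 4.13, 7.24 and 5.88 in traced cells, against 9.603 and 5.02 in non-traced cells, with overlap in both. The names that the identical profiles carry in the combined table hold the mark II for traced replicates 2 and 3 and non-traced replicate 2. This mark was read here as a second round and its absence as a first round, although no name or label states a round. In the first round Muc2 stood at 16.6 per 10000 in traced cells and 25.4 in non-traced cells, and in the second round at 21.1 and 14.8 in traced cells and 21.6 in non-traced cells, lower in traced cells in both. In the first round Klk1 stood at 1.61 per 10000 in traced cells and 8.21 in non-traced cells, and in the second round at 8.97 and 8.63 in traced cells and 4.67 in non-traced cells, so the direction differed between rounds. With the round as a term in the fit, 0 of the 8 genes were called. The standard errors of the 8 genes were 0.277 to 0.639 on the log2 scale. Over all genes 2 were higher and 9 lower with TMM, and 0 higher and 3 lower under totals.

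Levels in stem-like cells give the background for the low values. Over the 8 stem-like libraries the medians were 0.28 per 10000 for Muc2, 0.52 for Fcgbp, 0.21 for Zg16, 0.27 for Agr2, 1.22 for Spink4 and 0.08 for Ccl6. Fcgbp at 0.541 ± 0.178 in non-traced Paneth-like cells (SD, n = 2) and at 0.625 ± 0.177 in 5-day Paneth-like cells (SD, n = 3) was thus no higher than in many stem-like sums, which reached 1.51. Muc2, Spink4 and Ccl6 in Paneth-like cells stood above every stem-like sum. In 5-day Paneth-like against stem-like cells Spink4 was higher by 6.33 ± 0.192 on the log2 scale (SE) and Tff3 by 2.83 ± 0.229, and in 8-week ones Spink4 by 8.42 ± 0.253 and Tff3 by 5.69 ± 0.232. In 5-day goblet-like against stem-like cells Spink4 was higher by 7.36 ± 0.217 (SE) and Tff3 by 6.08 ± 0.321. Ccl6 rested on 1, 0 and 1 transcripts in the stem-like sums of 5-day replicates 2, 3 and 5, and Ccl9 on 0 or 1 in each stem-like sum of the 5-day and 8-week traced libraries, so no fold is given for them. A gene enters these tests only where the secretory class holds it, so the folds describe the levels and no count of the 10 genes is read against the share of all genes called: 11.5% (10.5% higher, 1.04% lower) at 5 days and 39.9% (25.8% higher, 14% lower) at 8 weeks for Paneth-like cells, and 15.4% (12.9% higher, 2.54% lower) for 5-day goblet-like cells. The scaling shifts the median of all genes here too, by -0.90, -1.52 and -0.18 on the log2 scale, and it turns the balance of calls. With TMM 71 genes were higher and 7 lower in 5-day Paneth-like cells, 251 and 136 in 8-week Paneth-like cells and 81 and 16 in goblet-like cells, while under totals these were 50 and 456, 113 and 735, and 71 and 99. Under totals Spink4 was higher by 5.44 and Tff3 by 1.94 in 5-day Paneth-like cells, by 6.95 and 4.23 in 8-week Paneth-like cells and by 7.13 and 5.85 in goblet-like cells.

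To compare cells of different depth, each cell was thinned to 3000 transcripts. A goblet-like cell then showed a median of 9 of the 10 genes in every group, against 5 in 5-day Paneth-like cells, 6 in 8-week Paneth-like cells and 2 in 5-day stem-like cells. Spink4 and Tff3 were found in all 17 goblet-like and all 29 Paneth-like cells of the 8-week traced CD24+ libraries, and Muc2 in 17 of 17 and 27 of 29. Fcgbp was found in 15 of 17 goblet-like and 3 of 29 Paneth-like cells, and Zg16 in 6 of 17 and 0 of 29. Before thinning, Fcgbp was found in 17 of 17 and 11 of 29, and Zg16 in 6 of 17 and 1 of 29, at median depths of 12110 and 18955 transcripts. At 5 days Zg16 was found in 14 of 19 goblet-like cells, 2 of 19 Paneth-like cells and 24 of 64 stem-like cells. Before thinning it was found in 18 of 19, 12 of 19 and 39 of 64, at median depths of 7167, 14528 and 5510 transcripts. The Paneth-like share of Zg16 was thus below that of stem-like cells and is read as background. Ccl6 went the other way, in 11 of 19 goblet-like and 19 of 19 Paneth-like cells at 5 days, with 1 of 64 stem-like cells. Unthinned, it was found in the same 11 and 19 cells, and in 3 of 64 stem-like cells.

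Among the goblet-like cells of the 3-week traced library the genes fell into evenly and unevenly carried ones. Fcgbp was found in all 29 goblet-like cells of the 3-week traced library, with a lowest value of 76.8, a median of 190 and a highest value of 371 per 10000, and Tff3 ran from 155 to 633. Zg16 was at 0 in 7 of the 29 cells, with a median of 7.27 and a highest value of 410, and Ccl6 was at 0 in 11 of the 29 with a highest value of 126.1. Fcgbp was less even in other groups, from 26.4 to 490 per 10000 in 5-day goblet-like cells and from 1.29 to 174 in 8-week ones. In 5-day replicates 2 and 5, 1 cell held 92.6% and 97.9% of the Zg16 transcripts of the 7 and 4 goblet-like cells. The Zg16 sums of those libraries are therefore nearly the values of single cells. Across the 29 cells, which share 1 library, Spearman's rho was 0.88 between Muc2 and Klk1, 0.77 between Muc2 and Tff3 and 0.66 between Zg16 and Clca3. It was -0.19 between Ccl6 and Ccl9, the neighbouring genes, and -0.21 between Clca3 and Ccl9. These are descriptions over cells that differ in depth.

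**Figure D4:**
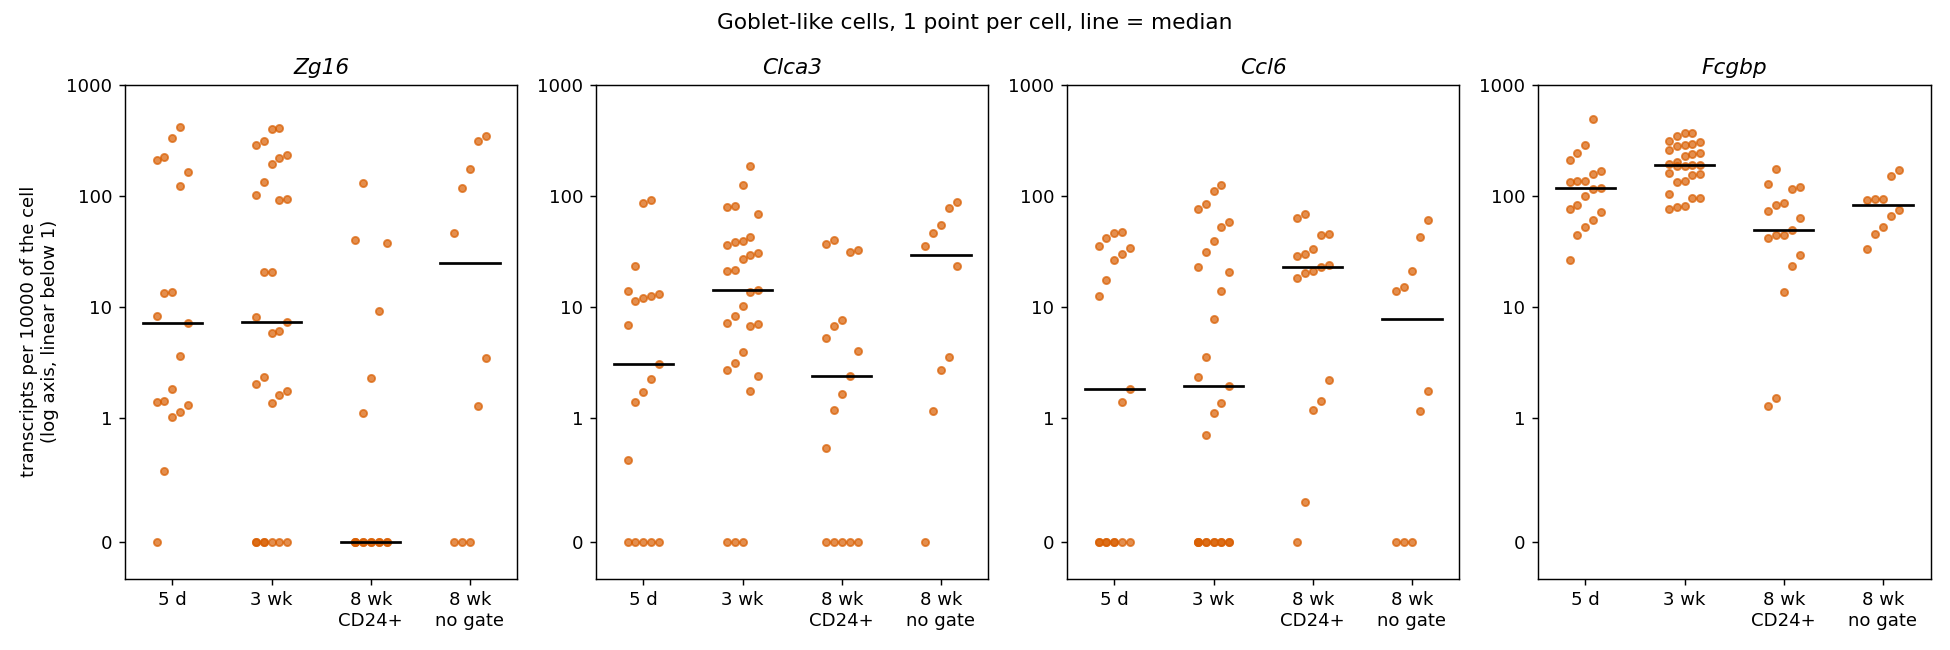
Transcripts per 10000 of the cell (log axis, linear below 1) of Zg16, Clca3, Ccl6 and Fcgbp in single goblet-like cells by group, with 1 point per cell and a line at the median. Zg16 and Ccl6 run from 0 to over 100 within a group, whereas Fcgbp lies between 76.8 and 371 in the 3-week cells and between 26.4 and 490 in the 5-day cells.

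The 17 cells named in both classes were set apart by clusters named from the markers, so their marker levels are in part built in. They came from the non-traced CD24+ libraries (11), the traced CD24+ libraries (5) and the ungated library (1), all of 8 weeks. Their median level of the Paneth markers was 1256 per 10000, against 122 in the goblet-like and 4594 in the Paneth-like cells of 8 weeks. That of the goblet markers was 144 per 10000, against 122 and 99.2, a list that hardly separates the classes. Spink4 had a median of 457 per 10000 in these cells, against 154 in the 29 goblet-like and 135 in the 46 Paneth-like cells of 8 weeks. Muc2 had a median of 42.4 per 10000, against 36.8 in goblet-like and 16.2 in Paneth-like cells, and Agr2 47.3, against 66.4 and 4.03. Zg16 was at 0 in 14 of the 17 and Clca3 in 13, although Fcgbp had a median of 19.95 and was at 0 in 1. Measured against Spink4, Agr2 stood at 8.86 and 13.7 transcripts per 100 of Spink4 in these cells of the non-traced libraries, between the goblet-like range at 8 weeks (36.9 to 39.8, traced CD24+) and the Paneth-like one (2.85 to 3.79). Fcgbp stood at 3.69 and 9.15 per 100 of Spink4, between 29.5 to 40.9 in goblet-like and 0.0762 to 1.11 in Paneth-like cells. Their median depth was 14404 transcripts, against 12110 in goblet-like and 19127 in Paneth-like cells, and no doublet detection was run, so whether a barcode held 1 cell or more was not tested. Of the 2 goblet-like cells of the non-traced libraries 1 held 145041 transcripts, and neither is in a test.

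**Figure D5:**
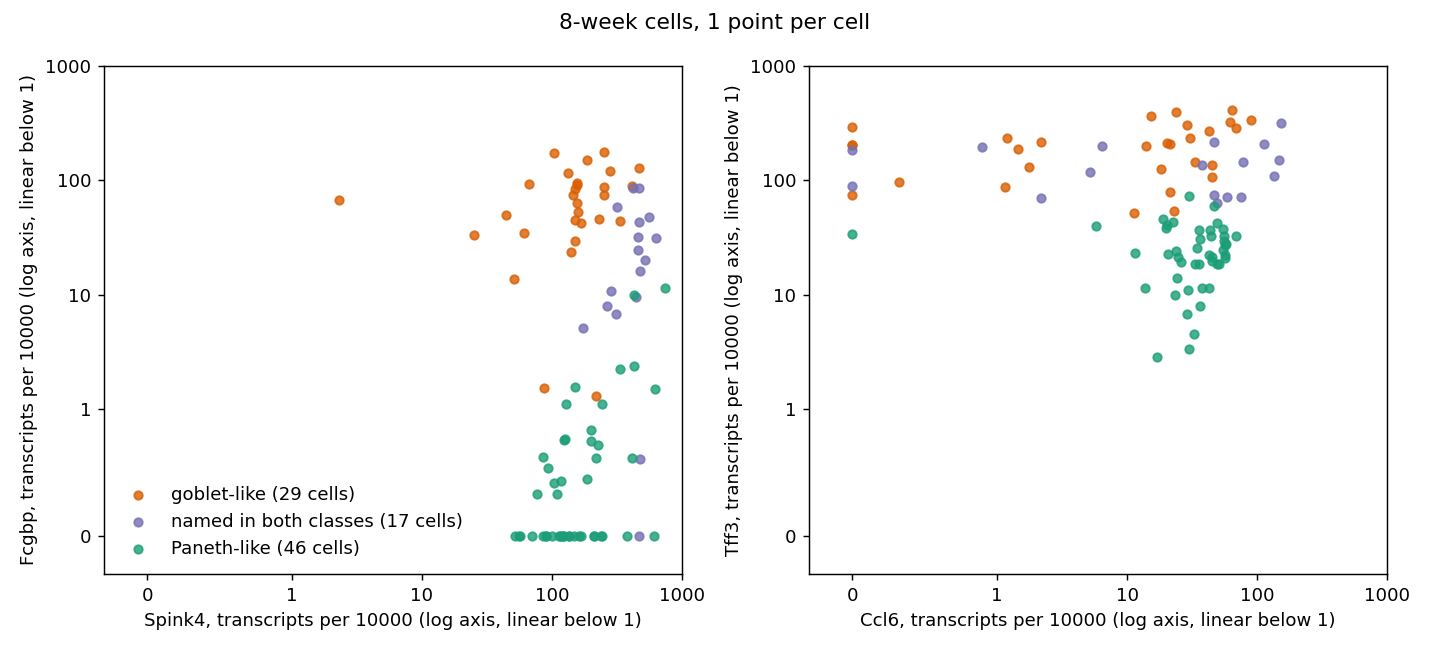
Levels in single 8-week cells (transcripts per 10000, log axes, linear below 1) of Fcgbp against Spink4 (left) and Tff3 against Ccl6 (right), for 29 goblet-like cells (orange), 17 cells named in both classes (purple) and 46 Paneth-like cells (green). The purple points lie at the high end of Spink4 (median 457) and between the other classes in Fcgbp (median 19.95).

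The genes most like each of the 10 were sought over 57 sums of a class in a library and 3694 genes. Of those named below, Tpsg1, Guca2a, Slc12a8 and Spdef were goblet markers and Mmp7 a Paneth marker. These markers named the classes, so their likeness is in part built in. The Pearson r of log2(per 10000 + 1) is given as a description, since the sums share libraries and cells. Zg16, Clca3 and Fcgbp were nearest to one another (r = 0.91 to 0.94) and to Tpsg1, a tryptase. Spink4 was nearest to Ccl6 (r = 0.96) and Muc2 (r = 0.95), and Ccl6 also to Mmp7 (r = 0.95), the matrilysin of Paneth cells. Agr2 was nearest to Gcnt3 (r = 0.95) and Slc12a8 (r = 0.94), Tff3 to Txndc5 (r = 0.94), a protein disulfide isomerase, and Klk1 to Hpd (r = 0.91). Muc2 was nearest to Spink4 (r = 0.95) and Guca2a (r = 0.95), and Ccl9 to Muc2 (r = 0.93) and Spdef (r = 0.92), a transcription factor of goblet and Paneth cells.

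5-day replicate 4 differed from the other 5-day libraries. Of its 68 cells, 41 formed a cluster found in no other library, whose leading genes were Ghrl, Fabp1, Guca2a and Apoa1, which are otherwise products of enteroendocrine cells, enterocytes and goblet cells. In these 41 cells all 10 genes stood above every 5-day stem-like sum. Their summed levels per 10000 were 42.7 for Tff3, 33.7 for Spink4, 32.01 for Zg16, 25.1 for Fcgbp, 15.2 for Agr2, 10.1 for Muc2 and 1.92 to 3.63 for Clca3, Klk1, Ccl6 and Ccl9. The levels were even over the cells: the highest Fcgbp value was 40.998 per 10000 at a median of 25.6, and no cell held more than 4.37% of its transcripts. After thinning, 24 of the 41 cells showed 8 or more of the 10 genes. In the 25 cells of the same library named stem-like, proliferating-like or enterocyte-like, Fcgbp was at 1.49 per 10000 and Ccl6 at 0. No 5-day comparison changed with this library, since it had no goblet-like and 2 Paneth-like cells.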

How the data were processed

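Single-cell CEL-seq data of 13 libraries were used. As deposited by the authors, a value is the expected count of a gene's transcripts in 1 cell, corrected for collisions among 256 molecular barcodes and unscaled, as read from the values. Of 3145332 values above 0, 145 were saturated at 1597.01, none of them of the 10 genes. Per the submitters' processing notes, BWA (0.6.2-r126) and the mm10 build were used; the gene annotation and filtering of reads are not given in the sources used here. A combined table held the same values for 7 libraries; 96 of its columns have a name that fits no label, and it served only to compare names.

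A barcode counted as a cell from 3000 transcripts, spike-ins excluded (892 of 1248, 356 removed). Spike-in RNA was 1.31% to 16.6% of a library. Counts were split binomially (probability 0.5): one part made the clusters and the other tested differences between classes, while levels and comparisons within a class used all counts. Clusters came from scanpy 1.11.5 and leidenalg 0.10.2 without the 10 genes (2000 variable genes, 30 principal components, 10 neighbours, resolution 1). Classes are the consensus of 15 runs. Each run clustered all cells on a binomial draw of the clustering counts (probability 0.8). A cluster was named with at least 3 markers raised by 0.25 on the log2 scale and 1 among its 10 leading genes, and left unnamed with over 85% of its cells from 1 library. The consensus was chosen after single runs, with the counts split after or before filtering, had been seen to give differing calls. No doublet detection was run.

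Counts summed per class and library (at least 3 cells) were rounded and tested with edgeR 4.0.16 in R 4.3.3 (quasi-likelihood test, TMM factors, filterByExpr, Benjamini-Hochberg over all genes tested, threshold 0.05), with the library as a block between classes. DESeq2 1.42.0, other scalings, filters, cell minimums, resolutions and left-out libraries were alternatives. The scripts were tested on simulated data. Intervals are exact at 95% and, like the floor of 3 transcripts, cover counting error only. All 10 genes are named, as the rule for named genes asks, with the other mucin genes that passed the test. The 10 genes and the gene lists were chosen with earlier results of these data known. The labels do not say that a replicate number marks a shared mouse or day, so the numbers were not used to pair libraries. The rounds, assumed from the mark II in names of the combined table and stated by no label, were used as a batch term in an alternative.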

Additional observations from a re-analysis of the deposited data

Results flagged for a closer look

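The difference between goblet-like and Paneth-like cells itself differed between the 8-week traced CD24+ and the 5-day libraries for 4 genes, by edgeR's interaction test. On the log2 scale it was lower at 8 weeks by -3.42 for Klk1, -1.82 for Muc2, -1.71 for Agr2 and -1.76 for Ccl9. Time cannot be told apart from sex and from the CD24 gate there. All 10 genes stood above every 5-day stem-like sum in the 41 unnamed cells of 5-day replicate 4, which enter no comparison. For each of the 10 genes, the goblet-like cells of 5-day replicates 1, 2, 3 and 5 were searched for a library far from the others. None was found, where chance gives about 1 in 20 per search. No other class or group was searched, and replicate 4 had 0 goblet-like cells to search.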

How the results depend on the processing

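Of 1183 fold changes recomputed under alternatives for 73 results, 1053 kept their direction and side of the threshold, 45 lost a call, 44 gained one and 41 changed sign, and the causes were not tested. Levels moved by no more than the spread between libraries in 90 of 100 cases. Shares of cells taken without thinning lay within the exact 95% interval of the thinned share in 39 of 60. For the 8-week difference between classes, leaving out a library left no residual degrees of freedom, so it was not run; DESeq2 called 4 of the 10 genes in place of 7, and Klk1 had 0.86 under totals. For the difference between times, called for 4 genes, the count was 0 with DESeq2, 0 at resolution 2, 0 with no replicate block (library not a term), 1 under totals, 2 with no filter on low counts and 7 with 1 clustering run, and 0 to 7 with a library left out. Clca3 there had 0.22 with DESeq2, 0.17 with no filter, 0.28 at resolution 2 and 0.38 under totals, and with a library left out -0.93 to 2.43, and Fcgbp -3.54 to 1.25. For 8 weeks against 5 days in goblet-like cells, where 0 were called, the count was 1 with DESeq2, 1 with the higher cell minimum, 1 under totals, 2 with no filter, 2 with 1 clustering run, 3 at resolution 2 and 0 to 1 with a library left out (1 without 5-day replicate 1 or replicate 5). Signs changed there for Agr2 at resolution 0.5 (-0.017), Tff3 with no filter (0.0071), Spink4 with the higher cell minimum (0.029) and with shared cells put by majority (0.081), and Ccl6 with 1 clustering run (-0.645). With a library left out the ranges were -0.56 to 0.015 for Muc2, -0.15 to 0.19 for Agr2, -0.47 to 0.087 for Tff3, -0.43 to 0.041 for Spink4 and -0.19 to 0.75 for Ccl6. In Paneth-like cells, traced against non-traced, resolution 2 gave -0.24 for Fcgbp, -0.18 for Tff3 and -0.50 for Ccl9, and both 1 clustering run and the majority rule gave -0.59, -0.27 and -0.44. With a library left out the ranges there were -0.91 to 0.12 for Agr2, -0.53 to 0.25 for Spink4, -0.59 to 0.30 for Klk1, -0.53 to 0.28 for Ccl6 and -0.081 to 0.46 for Ccl9.

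Correlations of same-numbered libraries were 0.08 and 0.0087 in goblet-like, 0.035 and -0.028 in Paneth-like and 0.104 and 0.0998 in traced against non-traced cells. Those of differently numbered libraries ran from -0.0797 to 0.0509, from -0.0974 to 0.126 and from -0.104 to 0.0216. In groups of few libraries such values mirror each other, so they cannot tell whether replicate numbers pair the libraries. With the replicate block 0, 7 and 0 genes were called in these comparisons, as without it. Under the block Clca3 had 1.35 and Ccl6 -0.076 in goblet-like cells, and Ccl9 -0.12 in traced against non-traced cells. At this depth, Zg16 and Clca3 in Paneth-like cells rest on a few transcripts per library. The totals scaling, the single clustering run and the majority rule were added after seeing the data.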
